A study of Mus musculus with 12 samples.

Results

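The genes described here encode the proteins of the mitochondrial ribosome. They were taken as all genes whose symbol is Mrpl or Mrps followed by a number, and each was read from a probe set that names only that gene, the one with the highest mean over the 12 arrays. This gave 76 genes of the 18193 genes read from the array, 47 with Mrpl symbols (large subunit) and 29 with Mrps symbols (small subunit). Mrpl30 and Mrpl53 lie only on probe sets that also name a second gene and were not analysed here. The genes were taken by symbol, with earlier results of these data known, and the probe set of each by its measured mean. All 76 matched a RefSeq gene, and they lie on 17 chromosomes.

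RNA of sorted mouse CD8 T cells was hybridised to Affymetrix arrays, 1 array per sample. The PD-1+ Tim-3+ group (n = 4) and the PD-1+ Tim-3- group (n = 3) were tumour-infiltrating lymphocytes (TIL), and the naive group (n = 5) came from the spleens of naive mice. All mice were C57bl/c, as the labels write the strain, and 6 to 8 weeks old. TIL came from B16F10-GP melanoma grown in the flank and were sorted between day 17 and day 19, and the labels call the Tim-3+ cells, which were also sorted as 2B4+, exhausted and the Tim-3- cells, also 2B4-, stem-like. The titles of the TIL samples also carry the term Tm, which those of the naive samples lack and which is not interpreted here. The tissue, spleen or tumour, and its digestion differ between TIL and naive cells along with the cell state, so these cannot be told apart in the comparisons with naive cells. Nothing in the labels says whether samples of a group came from separate mice or pools, so the tests measure the spread between these samples.

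Mitochondrial ribosomes translate the few proteins encoded in mitochondrial DNA, all of them subunits of the respiratory chain and the ATP synthase. Their rRNAs are made in the mitochondrion, while every ribosomal protein is encoded in the nucleus, translated in the cytosol and imported. Many of the proteins have bacterial counterparts and others were added in the mitochondrial line. In T cells, mitochondrial translation is drawn on when a resting cell is activated and grows. Some symbols are historical: in mammalian ribosome structures the products of Mrps18a and Mrps30 sit in the large subunit, and Mrps36 is now known as a part of the 2-oxoglutarate dehydrogenase complex. The counts by subunit here follow the symbols.

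The sort markers followed the labels. Havcr2, which encodes Tim-3, averaged 11.66 ± 0.14 in Tim-3+ TIL, 7.08 ± 0.49 in Tim-3- TIL and 4.63 ± 0.23 in naive cells (log2 intensity, SD, n = 4, 3 and 5). Pdcd1, which encodes PD-1, averaged 11.77 ± 0.17, 11.37 ± 0.089 and 5.14 ± 0.31 in the same groups, and Cd8a averaged 12.85 ± 0.081, 12.63 ± 0.027 and 12.82 ± 0.035. Between arrays of the same group, r across genes was 0.988 to 0.996. The arrays also fall into sets A (5 arrays) and B (7 arrays), which no label names and which earlier work found from the values: A holds Tim-3+ replicates 1 and 2, Tim-3- replicate 1 and naive replicates 1 and 2. Genes differed between arrays of 1 group by an SD of 0.234 to 0.301 (log2) within a set and of 0.337 to 0.412 across sets. Of 12 melanoma genes, 0 passed the threshold between the TIL groups by limma (2 at an unadjusted p below 0.05), with 11 of 12 above 0 and a median log2 change of 0.45, while 6 were higher and 2 lower in Tim-3+ TIL than in naive cells. Their summed intensity was 692 to 1660 in Tim-3+ TIL, 687 to 996 in Tim-3- TIL and 1013 to 1234 in naive cells. Of these, Tyrp1 averaged 6.77 ± 1.6 in Tim-3+ TIL, 6.15 ± 1.0 in Tim-3- TIL and 3.11 ± 0.17 in naive cells. Tyrp1 and Dct were higher in both TIL groups than in naive cells. In Tim-3- TIL 2 of the 12 melanoma genes were higher and 2 lower than in naive cells, 16.7% each. All genes gave 16.1% higher and 18.3% lower there, and 20.1% and 21.4% in Tim-3+ TIL against naive cells. Tyr averaged 4.76, 4.12 and 4.00 in the 3 groups, under the dim level of 5.71 used here (percentile 40 of all genes). Of 13 monocyte and macrophage genes 1 was higher and 1 lower between the TIL groups, where all genes gave 7.77% and 5.77%. The summed intensities of the 13 were 453 to 568 in Tim-3+ TIL, 547 to 640 in Tim-3- TIL and 383 to 462 in naive cells. Of 8 B cell genes 4 were lower in Tim-3+ TIL than in naive cells, where 21.4% of all genes were lower. The sums of the 8 were 258 to 270 in Tim-3+ TIL, 275 to 294 in Tim-3- TIL and 666 to 859 in naive cells. The part of the melanoma, monocyte and macrophage, and B cell genes in the results was not tested.

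The sequences shown here are stretches of promoters from RefSeq (GRCm38.p6), chosen because they hold motifs that are known from promoters of mitochondrial genes. Each runs 5′ to 3′ on the strand of its gene over the 120 bases before the annotated start, with the motif in capitals. Mrpl27, Mrps18a and Mrpl58 hold the ETS motif CCGGAAG, and Mrpl17 holds the NRF1 core GCATGCGC on its other strand. These 4 genes were higher in Tim-3+ TIL than in Tim-3- TIL. Mrpl9, which had its highest level in Tim-3- TIL, holds the full NRF1 motif, whose 2 strands read alike. Mrps11, which did not pass the threshold between the TIL groups, holds the long form of the YY1 motif on its other strand. The letters of these motifs are those in capitals in the sequences of Mrpl9 and Mrps11.

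Mrpl27, chr11:94653671-94653790, plus strand: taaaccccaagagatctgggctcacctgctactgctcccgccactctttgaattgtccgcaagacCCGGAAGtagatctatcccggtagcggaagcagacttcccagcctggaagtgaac
Mrps18a, chr17:46110884-46111003, plus strand: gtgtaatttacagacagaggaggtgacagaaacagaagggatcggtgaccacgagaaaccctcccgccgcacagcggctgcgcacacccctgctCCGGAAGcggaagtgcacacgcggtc
Mrpl58, chr11:115403632-115403751, plus strand: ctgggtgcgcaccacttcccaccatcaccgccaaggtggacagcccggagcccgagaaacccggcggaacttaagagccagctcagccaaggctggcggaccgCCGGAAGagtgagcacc
Mrpl17, chr7:105811088-105811207, minus strand: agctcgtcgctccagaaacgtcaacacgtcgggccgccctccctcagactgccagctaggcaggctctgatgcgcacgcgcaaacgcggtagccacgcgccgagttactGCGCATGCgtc
Mrpl9, chr3:94443216-94443335, plus strand: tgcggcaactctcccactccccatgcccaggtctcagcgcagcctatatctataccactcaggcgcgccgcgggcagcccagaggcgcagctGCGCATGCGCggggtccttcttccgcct
Mrps11, chr7:78783011-78783130, plus strand: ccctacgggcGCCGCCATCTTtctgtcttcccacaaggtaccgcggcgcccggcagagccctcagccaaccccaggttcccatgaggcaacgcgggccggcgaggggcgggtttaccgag

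Of the 76 genes, 67 had a promoter in the RefSeq table, from 250 bases before to 50 bases after the start, and motifs were searched in these windows on both strands. The counts are of genes, and some genes, such as Mrpl48 and Mrpl2, have several annotated starts. CCGGAAG was held by 25 of 67 genes, 37.3%, against 15.0% of the 14452 genes on the array with a window. AAGATGG was held by 19.4% of the 67 genes against 7.54% of all, and the long YY1 form, which contains it, by 7.46% against 1.25%. GCATGCGC was held by 11.9% against 4.68%, and the full NRF1 motif, which contains it on both strands, by 4.48% against 1.75%. The E-box CACGTG was at 7.46% against 10.2%, and TATAAA at 7.46% against 11.5%. Median GC content was 58.0% for the 67 genes and 58.7% for the array genes with a window. Of the 13 genes with a window that were higher in Tim-3+ TIL than in Tim-3- TIL, 6 held CCGGAAG and 2 held GCATGCGC. AAGATGG and the long YY1 form were each held by 1 of the 13, and the full NRF1 motif, CACGTG and TATAAA by 0. A match describes the letters of the window and is not evidence of a bound site.

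The first comparison set Tim-3+ TIL against Tim-3- TIL, the cells the labels call exhausted and stem-like. Mitochondrial ribosomal protein genes were on the whole higher in Tim-3+ TIL: 15 of 76 genes passed the threshold upward and 0 downward by limma, an adjusted p below 0.05 over all genes. These are 19.7% of the genes, where 13.5% of all genes passed the threshold, 7.77% higher and 5.77% lower. At an unadjusted p below 0.05 there were 35 higher and 2 lower. The median log2 change was 0.28, against 0.011 over all genes, and 70 of 76 genes (92.1%) lay above 0 against 51.9% of all genes. The groups did not overlap in 32 genes that were higher and 2 that were lower in Tim-3+ TIL, where all genes gave 13.1% and 9.57%. The mean of the 76 log2 intensities on an array was 9.59 to 9.72 in Tim-3+ TIL, 9.32 to 9.42 in Tim-3- TIL and 9.28 to 9.51 in naive cells. In bulk RNA, fewer cells that express a gene and less of its RNA per cell cannot be told apart.

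**Figure D1:**
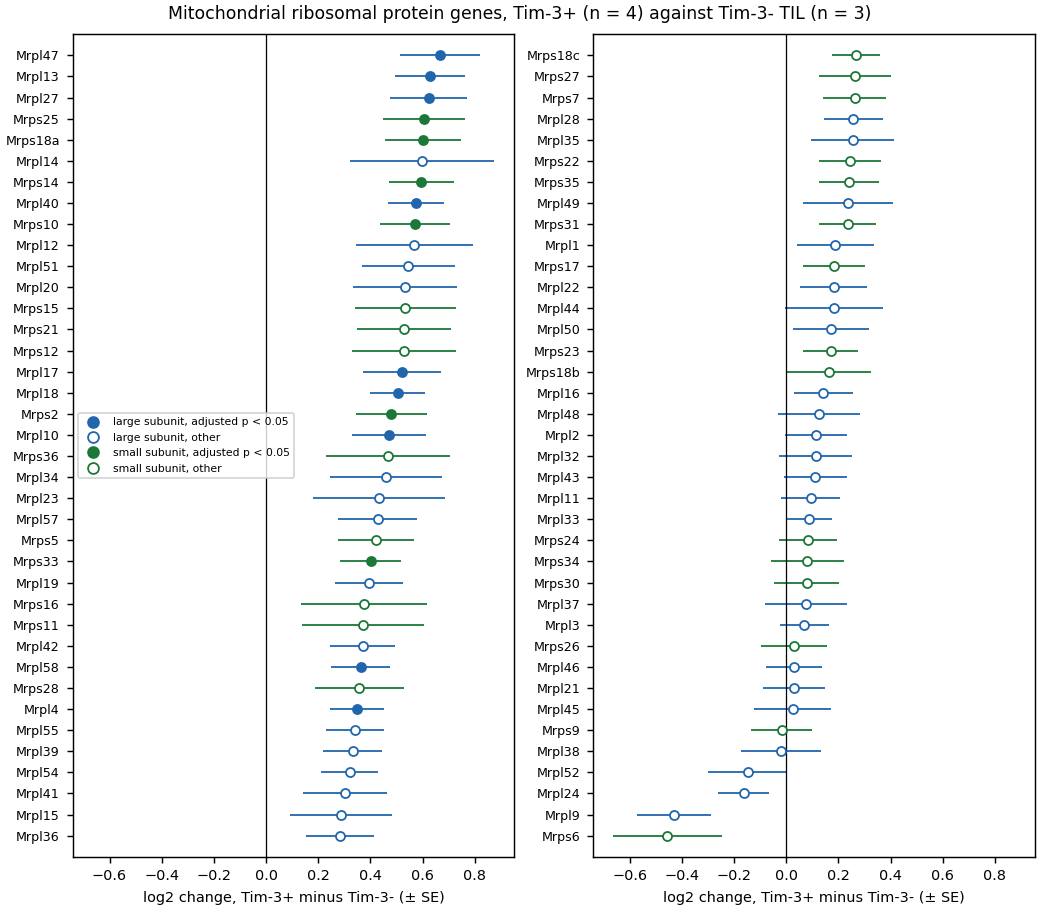
Log2 change between Tim-3+ (n = 4) and Tim-3- TIL (n = 3) for each of the 76 genes, with SE from the limma fit, ordered by size over both panels. Filled symbols mark the 15 genes past the threshold, and 70 of the 76 points lie above 0.

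Both subunits took part. Of the large-subunit genes 9 of 47 passed the threshold (19.1%, median change 0.28), and of the small-subunit genes 6 of 29 (20.7%, median 0.27). Genes whose numbering follows a bacterial ribosomal protein gave 10 of 43 with a median of 0.35, and the others, mostly proteins added in mitochondria, gave 5 of 33 with a median of 0.24. The share above 0 was 90.7% in the first set and 93.9% in the second.

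Mrpl40, a protein of the central protuberance of the large subunit, had the smallest adjusted p. Its log2 intensities were 9.76, 9.80, 9.75 and 9.74 in Tim-3+ TIL, 9.11, 9.20 and 9.26 in Tim-3- TIL, and 9.20, 9.22, 9.15, 8.84 and 9.01 in naive cells. All 4 Tim-3+ arrays lay above every other array, while Tim-3- and naive arrays overlapped. The change between the TIL groups was 0.57 ± 0.107 (log2, SE, adjusted p = 0.00245, limma), a 1.49-fold difference. Mrpl40 was called in each of the 12 fits that left out 1 array and in each of the 13 other fits. It fell just short of the minimum change of 1.5-fold that was also tried.

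Mrpl13, a core large-subunit protein with a bacterial counterpart, had 10.81, 10.73, 10.57 and 10.42 in Tim-3+ TIL, 9.98, 9.89 and 10.14 in Tim-3- TIL, and 9.68, 9.82, 9.83, 9.48 and 9.40 in naive cells. The 3 groups did not overlap and stood in that order. It was higher by 0.63 ± 0.135 in Tim-3+ than in Tim-3- TIL (adjusted p = 0.00604, limma). Mrpl4, which lines the exit tunnel of the nascent chain, showed the same order of groups. It had 10.65, 10.70, 10.53 and 10.72 in Tim-3+ TIL, 10.23, 10.28 and 10.38 in Tim-3- TIL, and 9.75, 9.92, 10.04, 9.75 and 9.91 in naive cells. The step between the TIL groups was 0.35 ± 0.102 (adjusted p = 0.0365, limma), and it lost its call in 6 of 12 fits without 1 array, where the adjusted p reached 0.114.

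Mrpl18 and Mrpl27 were high in Tim-3+ TIL, while their Tim-3- and naive arrays overlapped. Mrpl18, a large-subunit protein of the central protuberance, had 10.89, 10.76, 10.51 and 10.66 in Tim-3+ TIL, 10.19, 10.10 and 10.31 in Tim-3- TIL, and 10.31, 10.23, 10.21, 10.19 and 10.23 in naive cells. Its change between the TIL groups was 0.50 ± 0.105 (adjusted p = 0.00521, limma). Mrpl27, which reaches towards the peptidyl transferase centre, had 8.78, 8.90, 8.81 and 8.93 in Tim-3+ TIL, 7.93, 8.28 and 8.49 in Tim-3- TIL, and 8.27, 8.02, 8.59, 8.25 and 8.26 in naive cells. The change was 0.62 ± 0.146 (adjusted p = 0.0108, limma). In both genes the Tim-3+ arrays lay above all others.

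Mrpl47 and Mrps18a were low in Tim-3- TIL instead. Mrpl47, a large-subunit protein near the tunnel exit, had 9.20, 9.20, 9.49 and 9.38 in Tim-3+ TIL, 8.48, 8.72 and 8.76 in Tim-3- TIL, and 9.45, 9.18, 9.31, 8.74 and 9.06 in naive cells. Only naive replicate 4 reached into the Tim-3- range. Between the TIL groups the change was 0.66 ± 0.153 (adjusted p = 0.00978, limma), the largest of the 15. Mrps18a had 8.87, 8.82, 8.54 and 8.36 in Tim-3+ TIL, 7.79, 8.14 and 8.21 in Tim-3- TIL, and 8.67, 8.60, 8.53, 8.34 and 8.46 in naive cells. Here every Tim-3- array lay below all other arrays, and the change between the TIL groups was 0.60 ± 0.146 (adjusted p = 0.0132, limma). Without Tim-3- replicate 1 this adjusted p was 0.0582.

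Among small-subunit genes, Mrps14 had 10.89, 10.75, 10.48 and 10.75 in Tim-3+ TIL, 10.12, 10.02 and 10.23 in Tim-3- TIL, and 10.66, 10.51, 10.39, 10.30 and 10.28 in naive cells. Its groups in tumours did not overlap, and the change was 0.59 ± 0.125 (adjusted p = 0.00532, limma). Mrps25, a protein of the small subunit without a bacterial counterpart, had 9.70, 9.55, 9.12 and 9.29 in Tim-3+ TIL, 9.02, 8.62 and 8.79 in Tim-3- TIL, and 8.80, 8.67, 8.45, 8.36 and 8.42 in naive cells. It was higher in Tim-3+ TIL than in Tim-3- TIL by 0.61 ± 0.157 (adjusted p = 0.0192, limma), and the call was lost in 4 of 12 fits without 1 array. Mrps10 (0.57 ± 0.135), Mrps2 (0.48 ± 0.136) and Mrps33 (0.40 ± 0.117) also rose, with adjusted p values of 0.0109, 0.0311 and 0.0347 by limma. Without Tim-3- replicate 2 the adjusted p of Mrps10 was 0.0695, and Mrps2 and Mrps33 lost their calls in 3 and 5 of the 12 such fits.

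The other genes past the threshold were Mrpl17, with a change of 0.52 ± 0.150 (adjusted p = 0.0337, limma), Mrpl10 and Mrpl58. Mrpl10, which anchors the stalk that recruits translation factors, had 8.98, 8.83, 8.97 and 8.78 in Tim-3+ TIL, 8.15, 8.29 and 8.81 in Tim-3- TIL, and 8.75, 8.63, 8.89, 8.85 and 8.67 in naive cells. It was the only one of the 15 whose TIL groups overlapped, since Tim-3- replicate 3 exceeded Tim-3+ replicate 4. Its change was 0.47 ± 0.143 (adjusted p = 0.043, limma), and the call was lost in 11 of 12 fits without 1 array. Mrpl58, a peptidyl-tRNA hydrolase built into the ribosome, had 10.16, 10.25, 10.08 and 9.98 in Tim-3+ TIL, 9.58, 9.79 and 9.90 in Tim-3- TIL, and 10.63, 10.62, 10.63, 10.43 and 10.40 in naive cells. All 3 groups were apart, with naive highest and Tim-3- TIL lowest. The TIL step was 0.36 ± 0.113 (adjusted p = 0.0491, limma), and its call was lost in 10 of 12 such fits, as that of Mrpl17 was in 4.

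**Figure D2:**
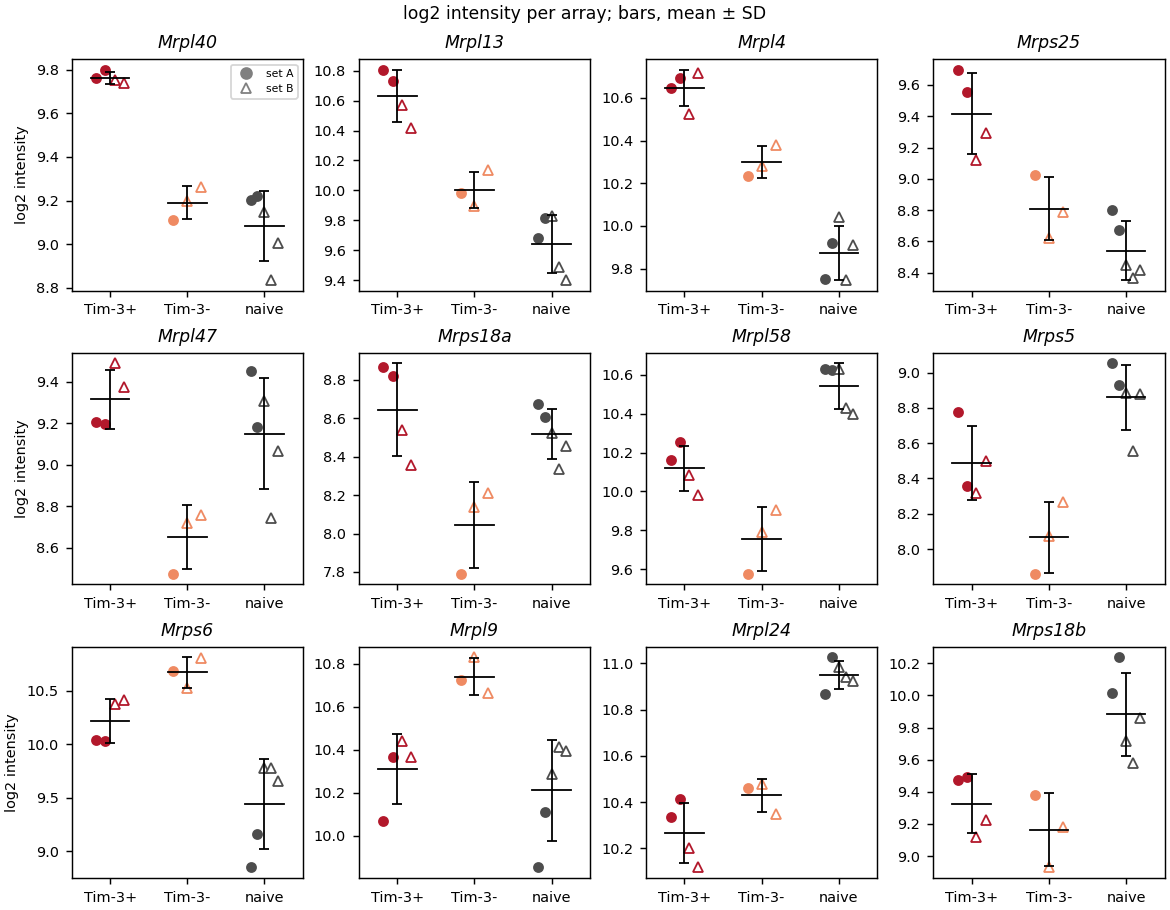
Log2 intensity of 12 mitochondrial ribosomal protein genes on each array, with a panel for each gene and circles for array set A and triangles for set B. Bars give the mean and SD, with n = 4 Tim-3+, 3 Tim-3- and 5 naive arrays, and the vertical scale differs between panels. Mrpl40, Mrpl13, Mrpl4 and Mrps25 are highest in Tim-3+ TIL, Mrps6 and Mrpl9 in Tim-3- TIL, and Mrpl24, Mrps18b, Mrpl58 and Mrps5 in naive cells.

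Between the TIL groups cell cycle genes moved with this result, and melanoma genes had a like direction. Among the cell cycle genes, 19 of 19 were higher in Tim-3+ TIL than in Tim-3- TIL (median log2 change 1.26). Their summed intensities were 19979 to 29011 in Tim-3+ TIL, 8011 to 13593 in Tim-3- TIL and 1101 to 1324 in naive cells. Cell cycle genes were also higher in 19 of 19 cases in Tim-3- TIL against naive cells (median 3.18). There the 76 genes gave 12 higher and 12 lower (median -0.06). Between the TIL groups the 12 melanoma genes had a median change of 0.45 with 91.7% above 0, against 0.28 and 92.1% for the 76 genes. Of the melanoma genes 0 passed the threshold by limma (2 at an unadjusted p below 0.05). The mean of their log2 intensities was 5.43 to 6.80 in Tim-3+ TIL, 5.44 to 6.04 in Tim-3- TIL and 5.34 to 5.49 in naive cells. The part of either list in the result was not tested. The count also depended on single arrays and on the array sets. Leaving out Tim-3+ replicate 1 gave 8 genes, against 15 with all arrays. The count was 9 when Tim-3+ replicate 2 or Tim-3- replicate 2 was left out. Calls of Mrpl13, Mrpl18, Mrpl27, Mrpl40, Mrpl47 and Mrps14 held in all 12 fits without 1 array. With the mean of the probe sets of a gene 7 of the 15 calls were lost, those of Mrpl13, Mrpl17, Mrpl47, Mrpl58, Mrps10, Mrps14 and Mrps25, and with the probe set of highest variance 6 were lost, those of Mrpl4, Mrpl10, Mrpl13, Mrpl17, Mrpl58 and Mrps33. With the array set as a block, 31 genes were higher and 1 lower, and all 15 calls remained, where the same fit gave 10.8% higher and 7.61% lower over all genes. Within set B 8 genes were higher, where all genes gave 6.41% higher and 5.55% lower. Set A holds 1 Tim-3- array, which the fit assumes to vary like the other groups, and gave 13 higher genes, where all genes gave 4.67% higher and 4.07% lower. In each set 0 of the 76 were lower by limma, or 2 at an unadjusted p below 0.05. Medians were 0.32 in A and 0.24 in B, and 66 of 76 genes lay above 0 in both sets. Among the genes called only with the block were Mrpl12, which forms the stalk itself (0.48, adjusted p = 0.018), Mrps12 at the decoding site (0.45, adjusted p = 0.00211) and Mrpl51 (0.47, adjusted p = 0.00216), by limma.

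No gene was lower in Tim-3+ than in Tim-3- TIL at the threshold, and 6 of 76 had a change below 0. The largest of these were Mrps6 and Mrpl9. Mrps6, a small-subunit protein with a bacterial counterpart, had 10.04, 10.03, 10.38 and 10.41 in Tim-3+ TIL, 10.68, 10.52 and 10.81 in Tim-3- TIL, and 8.85, 9.16, 9.78, 9.78 and 9.66 in naive cells. Mrpl9 had 10.07, 10.36, 10.44 and 10.37 in Tim-3+ TIL, 10.72, 10.83 and 10.66 in Tim-3- TIL, and 9.85, 10.11, 10.28, 10.41 and 10.39 in naive cells. In both genes the Tim-3- arrays lay above all other arrays. The change between the TIL groups was -0.45 ± 0.21 for Mrps6 (adjusted p = 0.201, limma) and -0.43 ± 0.141 for Mrpl9 (adjusted p = 0.0613). With the array set as a block, Mrpl9 passed the threshold at -0.39 (adjusted p = 0.0288, limma).

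The second comparison set Tim-3- TIL against naive cells. The genes split evenly: 12 of 76 were higher and 12 lower in Tim-3- TIL, 15.8% each, where 34.4% of all genes passed the threshold, 16.1% higher and 18.3% lower. The median log2 change was -0.06, as over all genes at -0.063. Groups did not overlap in 11 higher and 9 lower genes, where all genes gave 16.1% and 19%. The split moved with the scaling of the arrays. Repeating the quantile normalization gave 8 higher and 15 lower genes, and setting the array medians equal gave 6 higher and 17 lower, with a median over all genes of -0.139.

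Mrps6 rose most, by 1.23 ± 0.201 (adjusted p = 0.000251, limma), a 2.34-fold difference, and no Tim-3- array overlapped a naive array. Naive replicates 1 and 2, of set A, were the lowest for this gene, and the change was 1.68 in set A alone and 0.93 in set B alone. Mrpl46 (0.57 ± 0.103), a large-subunit protein without a bacterial counterpart, had 9.41, 9.41 and 9.50 in Tim-3- TIL against 8.90, 8.97, 9.05, 8.67 and 8.76 in naive cells. Its groups did not overlap, with an adjusted p of 0.000601 by limma. Mrpl9 (0.53 ± 0.135), Mrpl32 (0.45 ± 0.133), which is processed by the mitochondrial m-AAA protease, and Mrpl4 (0.42 ± 0.098) were also higher. Their adjusted p values were 0.00701, 0.0174 and 0.00367 by limma. Without Tim-3- replicate 1, that of Mrpl32 was 0.0942.

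Mrps5 fell most. This small-subunit protein, which lies near the mRNA path, had 7.86, 8.08 and 8.26 in Tim-3- TIL against 9.05, 8.93, 8.89, 8.55 and 8.88 in naive cells. The groups did not overlap, and the change was -0.79 ± 0.14 (adjusted p = 0.000479, limma). Mrpl58 fell by 0.78 ± 0.108 (adjusted p = 5.63e-05) and Mrps18b fell by 0.72 ± 0.156 (adjusted p = 0.0024), by limma and with no overlap. Mrpl24, which sits beside the tunnel exit, had 10.46, 10.48 and 10.35 in Tim-3- TIL against 10.87, 11.03, 10.99, 10.94 and 10.92 in naive cells. Its change was -0.52 ± 0.0942 (adjusted p = 0.000591, limma). Mrpl39 had 11.37, 10.94 and 11.03 in Tim-3- TIL and 11.52, 11.45, 11.50, 11.63 and 11.69 in naive cells, and it fell by 0.45 ± 0.108 (adjusted p = 0.00497, limma), with changes of -0.12 in set A and -0.62 in set B.

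The remaining genes past the threshold had smaller changes or larger errors. Mrps15, Mrpl49, Mrpl47 and Mrps18a were lower, with changes of -0.58, -0.51, -0.50 and -0.47. Mrps27, Mrpl22 and Mrps35 were lower by limma with adjusted p values of 0.0415, 0.045 and 0.038. Mrpl54, Mrpl45, Mrpl50, Mrpl13, Mrps30, Mrpl55 and Mrps18c were higher, with changes between 0.28 (Mrps18c) and 0.38 (Mrpl54, Mrpl45 and Mrpl50). Without Tim-3- replicate 1 the adjusted p of Mrpl47 was 0.0747 and that of Mrps18a 0.0893, and without Tim-3- replicate 3 that of Mrpl54 was 0.0702. Of the 24 calls, 9 held in every fit without 1 array. The number of higher genes was 12 with all arrays. It was 5 once Tim-3- replicate 3 was left out and 6 once Tim-3- replicate 1 was. It was 7 when naive replicate 1 or 4, Tim-3+ replicate 2 or 3, or Tim-3- replicate 2 was left out.

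The third comparison set Tim-3+ TIL against naive cells, and shares its Tim-3+ and naive arrays with the comparisons already given. In Tim-3+ TIL 27 of 76 genes were higher (35.5%) and 4 lower (5.26%), where 41.5% of all genes passed the threshold, 20.1% higher and 21.4% lower. The median log2 change was 0.22, against -0.065 over all genes. Groups did not overlap in 25 higher and 3 lower genes, where all genes gave 18.4% and 18.9%. Large-subunit genes gave 16 higher and 2 lower of 47, and small-subunit genes 11 higher and 2 lower of 29. Of the 31 calls, 23 held in every fit without 1 array. Cell cycle genes were higher in 19 of 19 cases here too (median 4.74), and the melanoma genes moved as described; their part was not tested.

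The largest rises were Mrpl13 (0.99 ± 0.118, adjusted p = 9.5e-06, limma), Mrps25 (0.88 ± 0.138, adjusted p = 0.000129) and Mrpl4 (0.77 ± 0.09, adjusted p = 7.39e-06). Mrps6 was higher by 0.77 ± 0.184 (adjusted p = 0.00358, limma) and so was the large-subunit gene Mrpl20, by 0.75 ± 0.174 (adjusted p = 0.00285). For Mrpl20 the arrays gave 9.77, 9.71, 9.10 and 9.22 in Tim-3+ TIL and 8.97, 9.06, 8.48, 8.48 and 8.49 in naive cells, without overlap but with set A above set B in both groups. Mrpl54 (0.70 ± 0.0968 on the probe set used), Mrpl40 (0.68 ± 0.0941), Mrpl55 (0.63 ± 0.0962) and Mrpl46 (0.60 ± 0.0947) rose without overlap between groups. Mrps11 (0.61 ± 0.205, adjusted p = 0.0278, limma) did overlap, and its call was lost in 5 of 12 fits without 1 array, with adjusted p values of up to 0.0835. The other 17 higher genes were Mrpl12, Mrpl27, Mrpl32, Mrpl50, Mrps18c, Mrpl35, Mrps10, Mrpl18, Mrps21, Mrpl16, Mrps23, Mrps30, Mrpl45, Mrpl28, Mrps22, Mrps14 and Mrps33, with changes between 0.28 (Mrps33) and 0.59 (Mrpl12).

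The 4 lower genes were Mrpl24, Mrps18b, Mrpl58 and Mrps5. Mrpl24 had 10.34, 10.41, 10.20 and 10.12 in Tim-3+ TIL, all under the 5 naive arrays given above, and fell by 0.68 ± 0.0865 (adjusted p = 1.7e-05, limma). Mrps18b fell by 0.55 ± 0.143 (adjusted p = 0.00613, limma). Mrpl58 fell by 0.42 ± 0.0994 (adjusted p = 0.00327, limma). Mrps5 had 8.78, 8.36, 8.32 and 8.50 in Tim-3+ TIL, and its highest array overlapped the lowest naive array. It fell by 0.37 ± 0.129 (adjusted p = 0.0322, limma), a call lost in 7 of 12 fits without 1 array. The smallest changes were those of Mrps9 (0.01 ± 0.103), Mrpl34 (0.02 ± 0.188) and Mrpl1 (0.02 ± 0.13).

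The order of the group means puts the comparisons side by side. Tim-3+ TIL had the highest mean in 56 of 76 genes, 73.7% against 29.4% of all genes. Tim-3- TIL had the lowest mean in 40 genes, 52.6% against 32.2%, and the highest in 4 genes, 5.26% against 21.9%. Naive cells had the highest mean in 16 genes, 21.1% against 48.7%. In 30 genes the means stood in the order Tim-3+ above Tim-3- above naive, as for Mrpl13, and in 26 in the order Tim-3+ above naive above Tim-3-, as for Mrpl47. Many of these neighbours did not differ beyond their spread, as the counts past the threshold show.

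**Figure D3:**
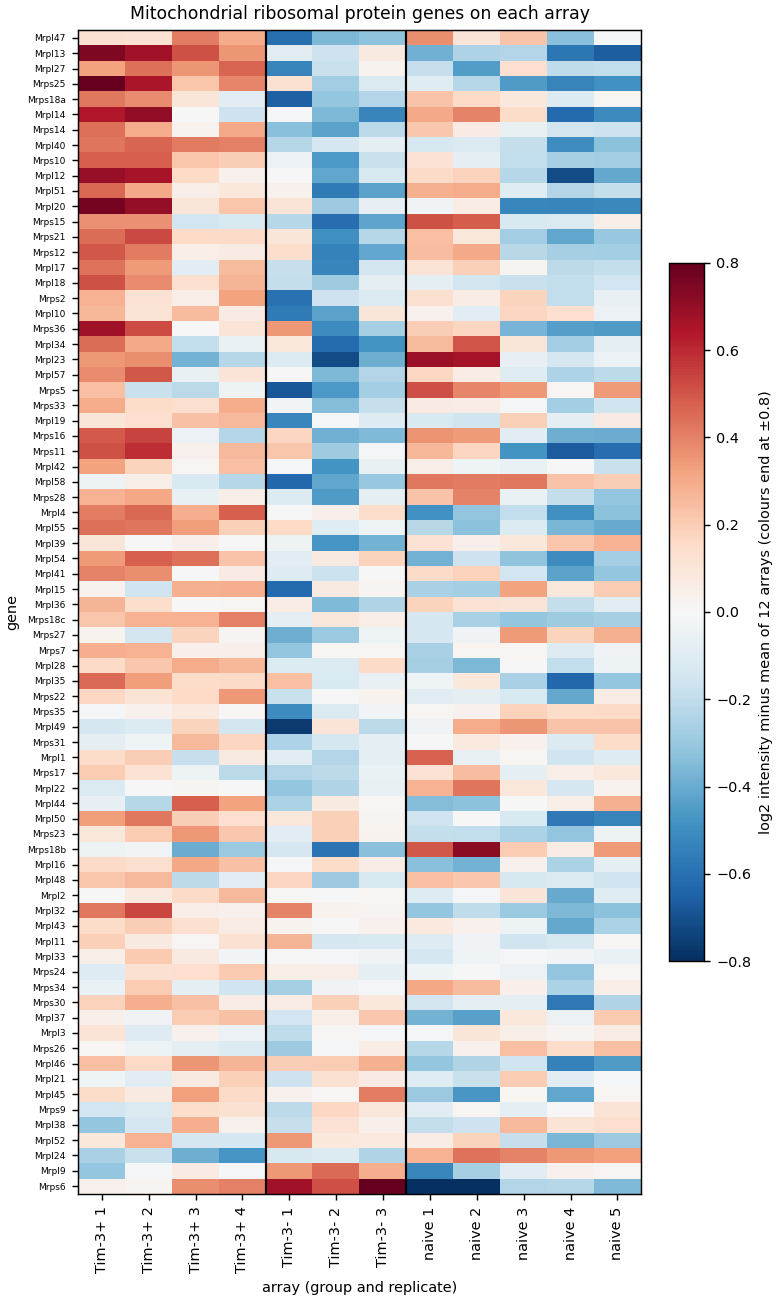
Log2 intensity of each of the 76 genes on each of the 12 arrays, minus the mean of that gene over the arrays, with the genes ordered by their change between the TIL groups. Red is above and blue below the mean. Most rows are red in the 4 Tim-3+ arrays, and the 2 lowest rows, Mrpl9 and Mrps6, are red in the 3 Tim-3- arrays.

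The genes of the Mrps18 family, paralogs of 1 bacterial protein, went separate ways. Mrps18a was low in Tim-3- TIL, with 0.13 ± 0.128 between Tim-3+ TIL and naive cells (adjusted p = 0.471, limma). Mrps18b had 9.47, 9.49, 9.12 and 9.22 in Tim-3+ TIL, 9.38, 8.93 and 9.18 in Tim-3- TIL, and 10.02, 10.24, 9.72, 9.58 and 9.86 in naive cells. Both TIL groups lay under the naive arrays and overlapped each other. Mrps18c had 11.44, 11.50, 11.50 and 11.62 in Tim-3+ TIL, 11.15, 11.31 and 11.27 in Tim-3- TIL, and 11.08, 10.96, 10.91, 10.94 and 10.96 in naive cells. Its groups did not overlap, and against naive cells it changed in the direction opposite to Mrps18b, with 0.54 ± 0.0812 between Tim-3+ TIL and naive cells (adjusted p = 7.79e-05, limma) and 0.28 ± 0.0884 between Tim-3- TIL and naive cells (adjusted p = 0.0258).

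Several genes took values that followed the array sets. Averaged over groups, 7 of the 76 were higher in set A than in set B by more than 0.5 and 0 were lower by as much. These are 9.21% higher, where 1.48% of all genes were higher and 4.48% lower. The 7 genes were Mrps36 (0.63), Mrpl23 (0.62), Mrpl14 (0.62), Mrps16 (0.61), Mrpl34 (0.53), Mrps11 (0.53) and Mrps12 (0.51). Mrpl14, for example, had 7.13, 7.21, 6.50 and 6.33 in Tim-3+ TIL, 6.48, 6.13 and 5.96 in Tim-3- TIL, and 6.79, 6.89, 6.64, 5.87 and 5.99 in naive cells. Its groups overlapped, and the change between the TIL groups of 0.60 ± 0.276 did not pass the threshold (adjusted p = 0.202, limma). Tim-3- TIL had 1 array in set A, so values within that set rest on it. The sets were also apart in the log2 ratio of 3′ to 5′ signal of 4 pairs of control probe sets for mouse genes, a sign of RNA and labelling quality, with -0.22 to -0.0015 in set A and 0.084 to 0.26 in set B. By group this ratio was -0.22 to 0.20 in Tim-3+ TIL, -0.0015 to 0.21 in Tim-3- TIL and -0.078 to 0.26 in naive cells, and its part in the results was not tested.

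Probe sets of 1 gene did not always move together. Of 33 genes with several probe sets above the dim level, a log2 intensity of 5.71, the probe sets differed in sign in 13 between the TIL groups, in 11 for Tim-3- TIL against naive cells and in 19 for Tim-3+ TIL against naive cells. Probe sets of Mrpl15 and Mrpl54 passed the threshold in opposite directions in both comparisons with naive cells. For Mrpl54 the probe set used here changed by 0.70 in Tim-3+ TIL against naive cells and the other by -0.60 (adjusted p = 0.0214, limma over probe sets). No gene did so between the TIL groups. No group mean of the 76 genes lay below the dim level, and the lowest was 6.19.

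The other genes of mitochondrial translation, from lists drawn up for this work, are given as counts past the same threshold. Beside them, all genes gave 7.77% higher and 5.77% lower in Tim-3+ than in Tim-3- TIL, 16.1% and 18.3% in Tim-3- TIL against naive cells, and 20.1% and 21.4% in Tim-3+ TIL against naive cells. Of 28 genes for ribosome assembly and rRNA modification, 5 were higher and 0 lower in Tim-3+ than in Tim-3- TIL, 1 higher and 8 lower in Tim-3- TIL than in naive cells, and 3 higher and 6 lower in Tim-3+ TIL than in naive cells. The lower shares against naive cells were 28.6% in Tim-3- TIL and 21.4% in Tim-3+ TIL, the second the same as over all genes. The medians were 0.11, -0.22 and -0.10 (log2), and 2 were lower between the TIL groups at an unadjusted p below 0.05. Between the TIL groups 75.0% of these 28 genes lay above 0, against 51.9% of all genes. Tfb1m, which methylates the small-subunit rRNA, was higher in Tim-3+ TIL than in Tim-3- TIL by 0.71 ± 0.12 (adjusted p = 0.0011, limma). Mrm1, a large-subunit rRNA methyltransferase, averaged 8.32 ± 0.16 in Tim-3+ TIL, 7.83 ± 0.21 in Tim-3- TIL and 9.44 ± 0.10 in naive cells. The change against naive cells was -1.12 in Tim-3+ TIL and -1.61 in Tim-3- TIL. Ddx28, an RNA helicase of large-subunit assembly, and Afg3l2, a subunit of the m-AAA protease, were higher in Tim-3+ TIL than in naive cells by 1.08 ± 0.17 and 0.79 ± 0.113.

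Of 17 mitochondrial translation factors measured, 2 were higher and 0 lower in Tim-3+ than in Tim-3- TIL, 1 higher and 9 lower in Tim-3- TIL than in naive cells, and 1 higher and 6 lower in Tim-3+ TIL than in naive cells. The 2 higher genes are 11.8%, against 7.77% of all genes, and the lower shares against naive cells were 52.9% in Tim-3- TIL and 35.3% in Tim-3+ TIL, against 18.3% and 21.4% of all genes. None was lower between the TIL groups at an unadjusted p below 0.05, and 5 were higher (limma). Of the 17 factors 94.1% lay above 0 between the TIL groups, against 51.9% of all genes. Lrpprc, which stabilises mitochondrial mRNAs, averaged 9.13 ± 0.11 in Tim-3+ TIL, 8.56 ± 0.13 in Tim-3- TIL and 9.41 ± 0.085 in naive cells. Its partner Slirp averaged 10.76 ± 0.12, 10.47 ± 0.084 and 10.07 ± 0.20 in the same groups. Lrpprc was lower in both TIL groups than in naive cells, and Slirp was higher in both (limma, adjusted p = 0.0228 and 0.000155 for Tim-3+ TIL). Gatb, a subunit of the mitochondrial glutamyl-tRNA amidotransferase, fell by 0.68 ± 0.128 in Tim-3+ TIL against naive cells (adjusted p = 0.00062, limma).

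Of 18 mitochondrial aminoacyl-tRNA synthetases, 3 were higher and 1 lower in Tim-3+ than in Tim-3- TIL, 3 higher and 9 lower in Tim-3- TIL than in naive cells, and 3 higher and 10 lower in Tim-3+ TIL than in naive cells. The 3 of 18 are 16.7%, against 7.77% of all genes between the TIL groups and near the shares of all genes against naive cells, and the 10 lower are 55.6% against 21.4%. The 3 higher genes of each comparison were Fars2, Gars and Kars, of which Gars and Kars also serve the cytosol. Fars2 averaged 9.62 ± 0.089 in Tim-3+ TIL, 9.06 ± 0.19 in Tim-3- TIL and 8.11 ± 0.14 in naive cells. Of 12 genes of mitochondrial DNA transcription and replication, 1 was higher and 1 lower in Tim-3+ than in Tim-3- TIL, 8.33% each, against 7.77% and 5.77% of all genes. In each TIL group 5 were lower than in naive cells, 41.7%, against 18.3% (Tim-3-) and 21.4% (Tim-3+) of all genes. Higher than in naive cells were 2 in Tim-3- TIL (16.7% against 16.1%) and 1 in Tim-3+ TIL (8.33% against 20.1%). Polg2, a subunit of the mitochondrial DNA polymerase, was lower in Tim-3+ than in Tim-3- TIL (-1.05 ± 0.172, adjusted p = 0.00093, limma). Among 4 ribosomal proteins with other names, Dap3 of the small subunit was lower in Tim-3+ than in Tim-3- TIL (-0.55 ± 0.123, adjusted p = 0.00777, limma) and Chchd1 was higher (0.41 ± 0.123, adjusted p = 0.0379). Against naive cells 2 of the 4 were lower in Tim-3- TIL and 3 in Tim-3+ TIL, with 0 higher in either by limma (also 0 at an unadjusted p below 0.05) and medians of -0.30 and -0.51. Ptcd3 and Gadd45gip1 were lower in both TIL groups and Dap3 in Tim-3+ TIL, where the 76 genes gave 12 higher and 12 lower in Tim-3- TIL and 27 higher and 4 lower in Tim-3+ TIL.

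The 81 nuclear genes of the respiratory chain and ATP synthase, whose complexes take up the products of mitochondrial translation were counted in the same way. In Tim-3+ TIL 33 were higher (40.7%, against 20.1% of all genes) and 5 lower (6.17% against 21.4%) than in naive cells, with a median of 0.29. In Tim-3- TIL 14 were higher (17.3% against 16.1%) and 3 lower (3.70% against 18.3%) than in naive cells, with a median of 0.07. Between the TIL groups 4 were higher (4.94% against 7.77%) and 0 lower, with a median of 0.15. There 84.0% of the 81 genes lay above 0, against 92.1% of the 76 genes and 51.9% of all genes. The TIL groups did not overlap in 16 of the 81 that were higher and 2 that were lower, where all genes gave 13.1% and 9.57%. Of 49 cytosolic ribosomal protein genes, 1 was higher (2.04% against 7.77% of all genes) and 0 lower (against 5.77%) between the TIL groups. In Tim-3+ TIL 4 were higher (8.16% against 20.1%) and 8 lower (16.3% against 21.4%) than in naive cells. In Tim-3- TIL 1 was higher (2.04% against 16.1%) and 4 lower (8.16% against 18.3%) than in naive cells. Their medians in these 3 comparisons were -0.03, -0.11 and -0.09, and 32.7% lay above 0 between the TIL groups. At an unadjusted p below 0.05, 0 genes of either list were lower between the TIL groups, and 12 and 3 were higher (limma). No test of the difference between these lists was made.

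**Figure D4:**
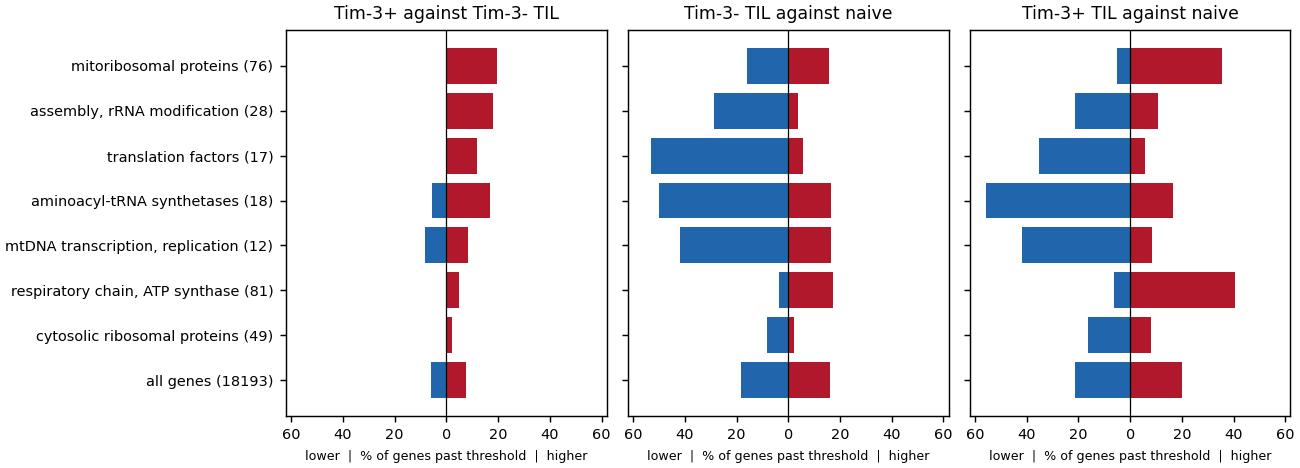
Share of genes past the limma threshold in each of the 3 comparisons, higher to the right (red) and lower to the left (blue), for the mitochondrial ribosomal proteins, related lists and all genes, with the number of genes in brackets. Mitochondrial ribosomal proteins had 19.7% of genes higher and 0 lower between the TIL groups, against 7.77% and 5.77% of all genes.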

How the data were processed

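Expression was measured on 12 arrays. The authors deposited intensities on a linear scale, 1 per probe set. The submitters' processing notes name RMA and affy. Versions, the return to a linear scale and whether arrays were normalized jointly are not stated there. Array medians lay between 58.8 and 63.0. The log2 intensity was computed from the deposited intensities with no pseudocount and no filter on dim genes. Of 45101 probe sets, 64 are controls, 34945 name 1 gene, 932 several and 9160 none in the platform annotation. Of the 76 genes, 42 had several probe sets.

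A limma 3.58.1 fit (R 4.3.3) of 3 group means over all 12 arrays gave each comparison as a contrast, with moderated two-sided tests and Benjamini-Hochberg adjustment over 18193 genes. Group levels are means ± SD, changes are ± SE, and precision is limited by how many arrays there are. The fit was tested on simulated data. Alternatives were other values per gene, normalizations, filters, moderation, blocks, subsets of arrays and a minimum change, with their effect in the closing section. Tables and motif searches used Python 3.11.15.

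The genes, lists and alternatives were chosen with earlier results of these data known. The naming rule took genes past the threshold between the TIL groups, and the 10 largest rises and up to 10 falls against naive cells. It added the 3 smallest changes in Tim-3+ TIL against naive cells, and genes whose probe sets disagree, of which only some are named here. It also held a few fixed genes: Mrpl12, the Mrps18 family, Mrps12, Mrps36, Mrpl44, Mrps27 and Mrpl3, the last given without values. Up to 5 genes of each related list and the sort markers completed it. Mrpl51, Mrpl14, Mrpl23, Mrps16 and those genes past the threshold against naive cells that this rule leaves out were named after their values were seen. Replicate numbers were checked as pairs. Deviations from the group mean correlated with r from -0.150 to 0.413 over 10 same-numbered pairs and from -0.385 to 0.303 over 37 others. By array set, r was 0.054 to 0.413 over 24 pairs within a set and -0.385 to -0.122 over 23 pairs across sets. The correlations followed the sets, so this check cannot say whether the numbers pair the samples. The main fit used no pairing.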

Additional observations from a re-analysis of the deposited data

Results flagged for a closer look

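For 42 of the genes named in the text, groups of 4 or 5 arrays were tested for an array far from the others. Of these 84 groups 3 stood apart, where chance alone marks about 1 in 20. Naive replicate 1 was highest for Mrpl1 at a log2 intensity of 8.80, while the other 4 naive arrays lay between 8.17 and 8.34. It was also highest for Mrps18c at 11.08, with the others between 10.91 and 10.96. Tim-3+ replicate 3 was highest for Mrpl49, a large-subunit gene, at 9.03, with the others between 8.70 and 8.74.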

How the results depend on the processing

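The median log2 change of the 76 genes kept its sign under every alternative run. Leaving out 1 array in turn gave medians of 0.25 to 0.32 between the TIL groups, -0.11 to -0.045 for Tim-3- TIL against naive cells and 0.18 to 0.24 for Tim-3+ TIL against naive cells. The counts ranged from 8 to 16 higher and 0 to 1 lower, 5 to 13 higher and 8 to 12 lower, and 20 to 30 higher and 3 to 4 lower in these comparisons. Between the TIL groups, 15 higher genes became 9 with only the groups compared, 31 with the array set as a block, 8 within set B and 6 with at least 1.5-fold. The 1 lower gene under the set block, a repeated quantile normalization, a filter on dim genes, trend with robust moderation, and array weights was Mrpl9; the probe set with the highest variance also gave 1 lower. With the replicate number as a block, 25 genes were higher and 2 lower between the TIL groups and 7 higher in Tim-3- TIL against naive cells. Whether the numbers pair the samples is not known. For Tim-3- TIL against naive cells, 12 higher genes became 6 with equal medians, 7 with only the groups compared and 3 within set A, and 1 higher and 3 lower with at least 1.5-fold. For Tim-3+ TIL against naive cells, 1.5-fold left 11 higher and 1 lower, and 4 lower genes became 10 with the probe set of highest variance and 7 with the mean of probe sets.

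Single genes changed sign when only the choice of probe set was changed. With the highest variance, Mrpl44 (-0.49) and Mrpl54 (-0.61) reversed in Tim-3- TIL against naive cells, and Mrpl17 (-0.43), Mrpl49 (0.40) and Mrpl54 (-0.60) in Tim-3+ TIL against naive cells. With the mean of probe sets, Mrpl54 was -0.12 in Tim-3- TIL and Mrps14 -0.094 in Tim-3+ TIL, both against naive cells. The cause was not tested. Of 3150 values of 42 named genes, 2772 were counted as the same, 270 lost the call, 101 gained one and 7 reversed. Changes of sign in genes without a call were not all counted as reversals. In Tim-3- TIL against naive cells, Mrpl40 was at 0.11 with the set block and -0.10 within set A. Mrpl12 was at 0.06 and -0.17 in the same fits.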

Other observations

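Outside the ribosome, the 6 genes whose level over the 12 arrays followed the mean of the 76 genes most closely were Pgls (Pearson r = 0.972), Hsd17b12 (0.970), Atp5o (0.967), Glis1 (0.963), Sec13 (0.956) and Ebp (0.954). Pgls encodes 6-phosphogluconolactonase of the pentose phosphate pathway, and Atp5o a subunit of the ATP synthase. Pgls averaged a log2 intensity of 9.41 in Tim-3+ TIL, 8.72 in Tim-3- TIL and 8.72 in naive cells. These arrays share groups and array sets, and the correlations are given as a description.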
